A study of Mus musculus with 12 samples.

Results

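Interleukin-13 (IL-13) was given to mouse hepatic progenitor cells in culture, and the transcripts of the treated cells were compared with those of cells given the vehicle alone. The comparison used 8 arrays, 4 of cells treated with recombinant IL-13 at 50 ng/mL and 4 of cells that received 0.1% BSA vehicle. Of 19057 genes with a probe carrying a single gene symbol, it covered the 10453 detected above background on at least 4 of the 12 arrays of the series. Of these, 599 genes (5.73%) differed between the groups at an adjusted p under 0.05, 366 of them (3.5%) higher and 233 (2.23%) lower with IL-13. Most changes were moderate: 553 of the 599 were under 2-fold.

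The cells had been sorted as live hepatic progenitors that lack the blood, endothelial and erythroid surface proteins CD45, CD31 and TER119 and carry EpCAM, CD24 and CD133. All groups grew in a William's E medium with 10% serum, IL-6, HGF and EGF at 10 ng/mL each and dexamethasone, a synthetic glucocorticoid, at 100 nM, and all were starved of serum for 24 h before vehicle or cytokine was added. The length of exposure to cytokine could not be taken from the labels. The remaining 4 arrays held cells treated with IL-4 at 50 ng/mL, which entered the fit and a side-by-side comparison at the end. The labels do not say whether the 4 samples of a group came from separate cultures or mice, so p-values reflect sample-to-sample spread that could be purely technical.

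IL-13 binds the receptor chain encoded by Il13ra1, which pairs with the IL-4 receptor alpha chain. The kinases JAK1 and TYK2 on these chains phosphorylate STAT6, a transcription factor that moves to the nucleus and binds DNA at TTC and GAA words set a few bases apart. The shorter chain encoded by Il13ra2 binds IL-13 tightly and is known mainly as a decoy, and in epithelia of the lung and gut the cytokine is known for driving mucus, chitinase-like proteins and chemokines.

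The 8 arrays were alike in quality. Between 18469 and 19403 of 45281 probes were detected on each, and the correlation over all genes tested ranged from 0.993 to 0.997 between control arrays and from 0.995 to 0.997 between IL-13 arrays. Each group had 2 arrays on each of the 2 chips, but always at the same positions on the chip, so chip position and treatment cannot be told apart. Control array 4 stood apart from the other control arrays on the second principal component and in its hemoglobin probes, whose mean was 5.95 on the log2 scale against 4.48 to 4.64 on the other control arrays. Without it, 533 genes passed, 311 higher and 222 lower. The labelled identity was visible in part. Krt19, Krt7 and Sox9, markers of bile duct and progenitor cells, and Hnf4a, a hepatocyte lineage factor, were detected on every array, with control means of 11.34, 9.55, 10.12 and 9.14, and Cd24a, a gate gene, was detected on every array at 7.83. The probe for the gate gene Epcam was at background on all 12 arrays, and that of Prom1, which encodes CD133, was detected on 1 control and 3 IL-13 arrays. The hepatocyte genes Alb and Cps1, the endothelial gene Pecam1 and the erythroid gene Alas2 were at background on all 12 arrays. Other markers of these cell types were detected. The hepatocyte genes Ttr and Serpina1a and the hemoglobin gene Hbb-bs were detected on every array. The hepatocyte gene Apoa1 was detected on 2 control and 4 IL-13 arrays and was called higher, by 1.29 on the first chip and 1.16 on the second. Of 18 hepatocyte products and enzymes measured, 1 rose and 1 fell (11.1%, against 5.73% over all genes), with a median change of -0.12. Hbb-bt was detected on 2 control and 2 IL-13 arrays. Hba-a1 and the endothelial gene Kdr were each detected on 1 control and 1 IL-13 array, and the endothelial gene Cdh5 on 1 control array. Ptprc, which encodes CD45, was at background on the 8 arrays compared.

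Levels are given as log2 intensity after background correction, and a change is the IL-13 mean minus the control mean on that scale, followed by its standard error from limma, a linear model with a shared estimate of the spread. The shares of 5.73% called, 3.5% higher and 2.23% lower are the background for every count of called genes below. Before adjustment, 1859 of the 10453 genes had a limma p under 0.05 for IL-13 against control, the background for such counts. The gene lists were written with earlier results of these data known, so the share of a list is a description and no test. Of the called genes, 43 rose and 3 fell at least 2-fold, 81 rose and 27 fell by 1.5 to 2-fold, and 242 rose and 203 fell by less than 1.5-fold. The median size of a called rise was 0.46 and that of a called fall 0.38, against a median absolute change of 0.09 over all genes. All 4 IL-13 arrays lay above all 4 control arrays for 341 of the 366 higher genes, and below them for 223 of the 233 lower genes; over all genes tested, 6.03% were separated upward and 4.92% downward. The split between rises and falls depended on the scaling: with the submitters' own processed values, 203 genes were higher and 406 lower. The plot of change against level shows the long upper tail and the compact lower edge.

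**Figure D1:**
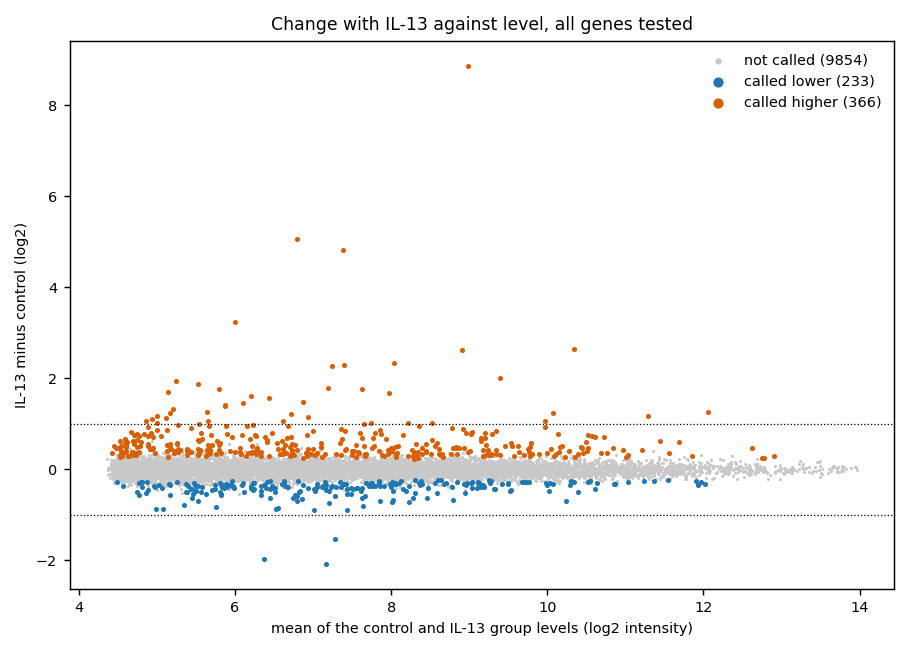
Each point is a gene; the x axis is the mean of the control and IL-13 group levels (log2 intensity), the y axis the change with IL-13 (log2), and dotted lines mark 2-fold. The 366 called rises reach 8.87 while the 233 called falls end at -2.07, and most called genes of either colour lie between the dotted lines.

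The called genes also moved in the same direction on each chip when its arrays, 2 per group and IL-4 included, were fitted alone. This held for all 366 rises and all 233 falls. The genes were called from these same arrays, so this describes the size on each chip and is no separate test. On their own, the first chip called 243 genes and the second 186.

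Of the 226 called genes named here besides Apoa1, 186 kept their call in each of the 8 fits that left out 1 array. Apoa1 kept its call in each of them too. The other 40 had changes of 0.25 to 0.59 in size and adjusted p of 0.012 to 0.0485. Between 19 (without IL-13 array 1) and 32 (without IL-13 array 2) of them were lost in a single fit. Ccl9, Tgfbr1 and Pcyt2 lost their call in 1 fit. A further 15 lost it in 2 to 5 fits: Cdh6, Foxa3, Gata3, Lgr5, Mrc1, Nr1h4, Pcdh1, Pcdh7, Pcx, Pdk1, Phgdh, Rasl12, Sipa1l1, Sqstm1 and Tgfb3. The remaining 22 lost it in 6 or 7 of the 8 fits: Cflar, Chac1, Cp, Dusp6, Fzd5, Guca2b, H4c1, H4c9, Irf2, Jak2, Jak3, Klf3, Klf5, Lgals3, Nupr1, Pcyt1a, Pfkl, Slc39a10, Snai2, Stmn1, Timp1 and Ube2c.

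**Figure D2:**
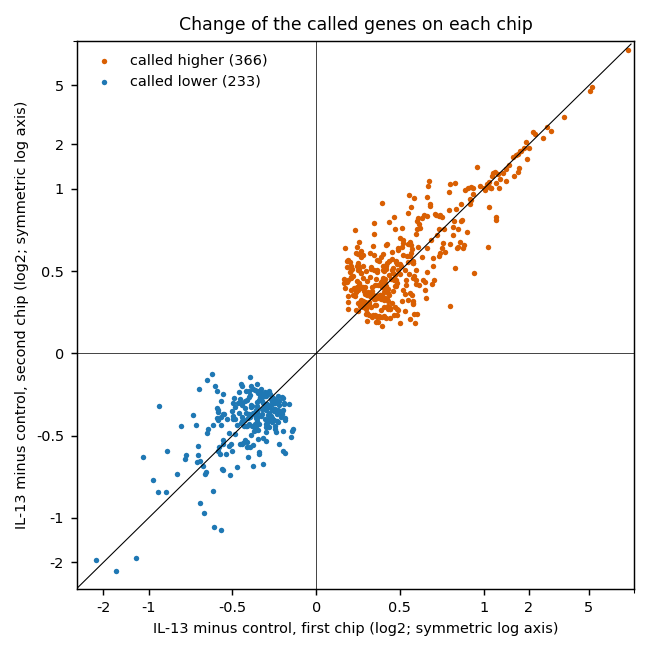
Change with IL-13 on the first chip (x axis) and the second chip (y axis) for the 599 called genes, each from 2 control and 2 IL-13 arrays, on symmetric log axes with the line of equal change. All points lie in the upper right and lower left quadrants, and Chil4, Chil3 and Igfbp5 form the upper end.

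Among the components of the pathway itself, the feedback inhibitor Cish rose strongly, while the receptor chain Il13ra1 and the kinases Jak1 and Tyk2 did not pass. Of 30 measured genes of a list of receptors, JAK kinases, STAT factors and their inhibitors, 5 rose and none fell (16.7%), with a median change of 0.01 against -0.0050 over all genes. Cish, a SOCS-family protein induced by STAT factors that dampens cytokine receptor signals, stood at 9.02, 9.03, 9.26 and 8.80 on the 4 control arrays and 11.64, 11.70, 11.66 and 11.66 on the 4 IL-13 arrays. The IL-13 arrays lay close together and far above the controls, a 6.23-fold rise (2.64 ± 0.09, adjusted p = 1.17e-12). Socs2, of the same family, rose by 0.45 ± 0.07 (adjusted p = 0.000578), whereas Socs3 did not pass (-0.08 ± 0.10, adjusted p = 0.754). Il13ra2, the decoy chain, was not detected on any control array and was detected on 3 of 4 IL-13 arrays; its levels were 4.18, 4.18, 4.16 and 4.26 on the 4 control arrays and 4.76, 4.89, 4.67 and 4.53 on the 4 IL-13 arrays. The groups did not overlap, and the rise was at least 1.11-fold (adjusted p = 0.00126). Il13ra2 passed the detection filter only through cytokine-treated arrays, so the separation and the adjusted p are descriptions and no support. The signalling chain Il13ra1 was lower by 0.33 ± 0.10 but missed the threshold (adjusted p = 0.0525). Stat6 (0.23 ± 0.12, adjusted p = 0.354), Jak1 (-0.03 ± 0.11, adjusted p = 0.928) and Tyk2 (0.24 ± 0.10, adjusted p = 0.172) did not pass either, and the Il4ra probe was at background on all arrays. The change of Il4ra is therefore unknown. Jak3, a kinase mostly known from lymphocytes, and Jak2 rose modestly, by 0.34 and 0.30, and the further probe of each gene did not pass. Jak2 was named after its value was seen.

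The promoters of several of the strongest responders are shown because they hold the TTC and GAA pairs that STAT factors bind. Each run is 300 bases, from 250 before to 50 after the transcription start in RefSeq's annotation of GRCm38.p6, 5′ to 3′ on the strand of the gene, with matches to TTC and GAA set 4 bases apart (the spacing preferred by STAT6) and 3 bases apart (the spacing shared by other STAT factors) in capitals. The bases between them may be any, and both motifs read the same on either strand.
Ccl17 (chr8:94810203-94810502, plus strand): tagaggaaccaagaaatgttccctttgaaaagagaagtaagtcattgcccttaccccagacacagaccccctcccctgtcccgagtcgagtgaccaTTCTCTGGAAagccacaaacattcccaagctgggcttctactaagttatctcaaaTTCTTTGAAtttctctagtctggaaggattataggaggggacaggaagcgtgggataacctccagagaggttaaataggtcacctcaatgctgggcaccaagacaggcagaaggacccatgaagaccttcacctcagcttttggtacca
Prss35 (chr9:86743383-86743682, plus strand): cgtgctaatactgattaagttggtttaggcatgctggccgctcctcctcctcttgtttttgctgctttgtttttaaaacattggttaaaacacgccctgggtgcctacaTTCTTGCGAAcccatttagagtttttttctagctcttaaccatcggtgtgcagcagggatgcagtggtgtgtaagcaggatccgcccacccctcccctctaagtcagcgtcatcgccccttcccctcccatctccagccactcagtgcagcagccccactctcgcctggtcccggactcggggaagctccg
Cish (chr9:107296409-107296708, plus strand): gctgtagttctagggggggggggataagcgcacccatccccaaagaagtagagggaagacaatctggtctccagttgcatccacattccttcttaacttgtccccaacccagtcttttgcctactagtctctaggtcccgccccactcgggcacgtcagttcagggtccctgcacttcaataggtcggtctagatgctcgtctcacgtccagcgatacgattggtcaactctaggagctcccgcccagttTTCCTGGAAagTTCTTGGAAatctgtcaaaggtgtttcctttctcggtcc
Chil4 (chr3:106219430-106219729, minus strand): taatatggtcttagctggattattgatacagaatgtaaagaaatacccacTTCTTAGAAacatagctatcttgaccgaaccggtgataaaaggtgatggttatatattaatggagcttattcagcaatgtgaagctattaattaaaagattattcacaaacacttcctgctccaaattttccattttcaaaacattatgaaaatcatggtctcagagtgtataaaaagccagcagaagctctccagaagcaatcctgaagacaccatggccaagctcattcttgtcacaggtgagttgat
Chil3 (chr3:106167515-106167814, minus strand): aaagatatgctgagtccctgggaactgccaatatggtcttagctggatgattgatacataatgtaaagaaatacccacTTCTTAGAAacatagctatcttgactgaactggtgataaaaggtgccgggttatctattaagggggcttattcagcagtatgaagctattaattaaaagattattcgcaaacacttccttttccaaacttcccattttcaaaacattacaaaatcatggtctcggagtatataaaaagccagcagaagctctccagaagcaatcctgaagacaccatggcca
Lcn2 (chr2:32387690-32387989, minus strand): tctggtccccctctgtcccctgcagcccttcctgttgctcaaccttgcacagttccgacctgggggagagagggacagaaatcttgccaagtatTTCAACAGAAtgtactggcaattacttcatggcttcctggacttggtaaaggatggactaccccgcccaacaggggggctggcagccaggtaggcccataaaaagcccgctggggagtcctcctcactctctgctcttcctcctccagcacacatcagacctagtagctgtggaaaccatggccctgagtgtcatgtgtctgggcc
The Ccl17 window holds both motifs, TTCTCTGGAA starting 154 bases and TTCTTTGAA starting 99 bases before the transcription start. The Prss35 window holds TTCTTGCGAA at 141 bases before the start. Cish carries only the shorter spacing here, TTCCTGGAA and TTCTTGGAA within the first bases after the start. The paralogs Chil4 and Chil3 carry the same word, TTCTTAGAA, at 200 and 172 bases before their starts. A match is not particular to genes that rose: Lcn2, which fell, holds TTCAACAGAA at 156 bases before the start.

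Over the 8520 genes tested that had a promoter sequence in RefSeq's table, 6.43% held the 4-base spacing in this window. The share was 8.56% among 292 genes that rose (25 genes, exact 95% interval 5.62% to 12.4%) and 5.43% among 184 that fell. The interval of the rising genes includes the share over all genes. Among 31 rises of at least 2-fold, 7 held it (22.6%): Ccl17, Prss35, Cidec, Reg1, Sult1a1, Vdr and Hemk1. For the 3-base spacing the shares were 8.18% over all genes, 9.59% of rises, 5.98% of falls and 16.1% of the rises of at least 2-fold. These shares are descriptions of a short window and carry no test.

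The largest rises were in genes of chitinase-like proteins, growth factor binding, proteolysis and mucosal secretion. Chil4, a chitinase-like secreted protein of mouse airway and stomach epithelium, stood at 4.40, 4.32, 4.36 and 5.12 on the 4 control arrays and 13.47, 13.41, 13.40 and 13.39 on the 4 IL-13 arrays. It was detected on only 1 of the 4 control arrays and lay far above them on every IL-13 array, a change of 8.87 ± 0.15, adjusted p = 2.8e-17. Its paralog Chil3 (Ym1) stood at 4.33, 4.21, 4.25 and 4.27 on the 4 control arrays and 9.64, 9.36, 9.04 and 9.23 on the 4 IL-13 arrays, was not detected on any control array and rose at least 27.1-fold (adjusted p = 1.4e-13). Chil3 passed the detection filter only through cytokine-treated arrays, so its adjusted p is a description. Another paralog, Chil5, rose at least 1.42-fold from background. These genes are close in sequence, so part of the signal of one may come from another, which was not tested; all 3 further probes of Chil3 and Chil4 passed in the same direction. Igfbp5, a secreted protein that binds insulin-like growth factors, stood at 4.73, 4.83, 5.14 and 5.20 on the 4 control arrays and 9.85, 9.87, 9.79 and 9.63 on the 4 IL-13 arrays. No control array came near the IL-13 arrays, and the rise was 28.1-fold (4.81 ± 0.17, adjusted p = 1.81e-12) with 2 of 2 further probes passing.

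Capn13, a calpain-type cysteine protease, rose by 3.23 ± 0.11, adjusted p = 1.81e-12, with 1 of 4 control arrays above background; its further, dimmer probe did not pass. Hs3st1, which adds the rare 3-O-sulfate to heparan sulfate, rose from 7.60 ± 0.17 to 10.23 ± 0.12 (SD, n = 4), a 6.18-fold change. Egln3, an oxygen-dependent prolyl hydroxylase that acts on hypoxia-inducible factors, rose 5.03-fold (adjusted p = 4.2e-11), although its dimmer further probe did not pass. Ccl17, a chemokine that attracts T helper 2 cells through CCR4, stood at 6.19, 6.20, 5.86 and 6.19 on the 4 control arrays and 8.32, 8.44, 8.39 and 8.36 on the 4 IL-13 arrays. Every IL-13 array was more than 2 log2 units above every control array, and the change was 2.27 ± 0.11, adjusted p = 1.66e-10. Prss35, a protein with the fold of a serine protease, rose 4.86-fold and Tmprss2, a serine protease anchored in the cell membrane, 4-fold. Spink4, a protease inhibitor of goblet cells, rose at least 3.15-fold from below detection on all control arrays. Clca1, a secreted protein of goblet cells that increases chloride conductance, stood at 4.57, 4.37, 4.70 and 4.73 on the 4 control arrays and 6.26, 6.40, 7.06 and 6.16 on the 4 IL-13 arrays, with all IL-13 arrays above all controls and the widest spread of these 12 genes among the IL-13 arrays.

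**Figure D3:**
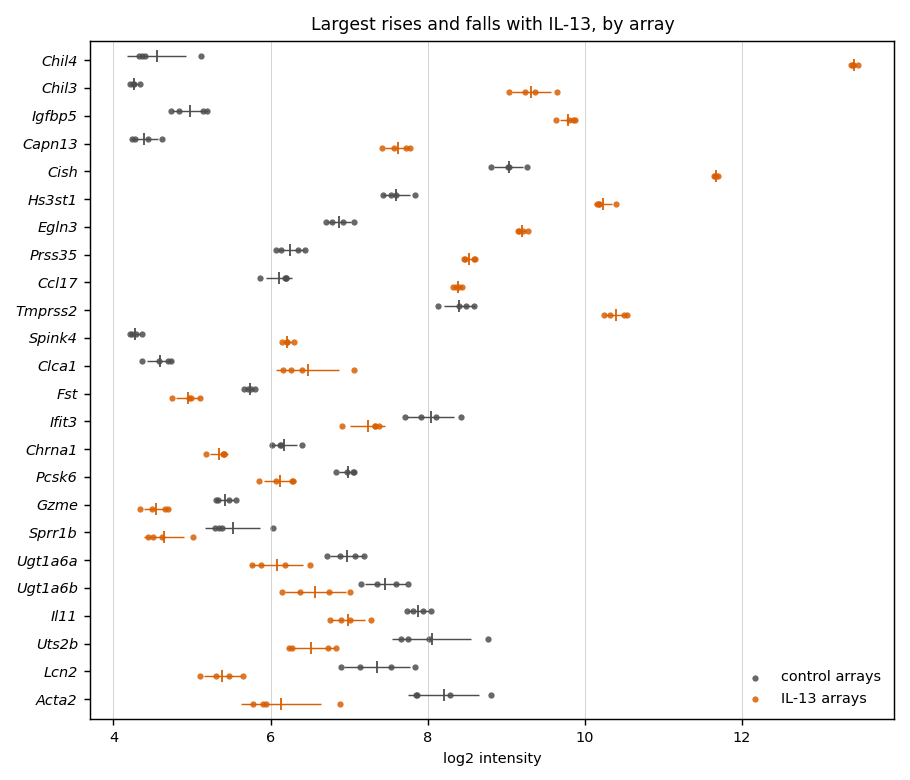
Log2 intensity of the 12 largest separated rises and the 12 largest separated falls in each of 4 control arrays and 4 IL-13 arrays; the tick is the group mean and the line its SD. Control and IL-13 arrays do not overlap for any of the 24 genes, and Chil4 spans the widest distance.

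The largest falls were smaller and fewer. Acta2, the smooth muscle actin gene of stellate cells and myofibroblasts, stood at 7.87, 8.29, 7.85 and 8.81 on the 4 control arrays and 5.78, 5.91, 5.95 and 6.89 on the 4 IL-13 arrays, a 4.21-fold fall (-2.07 ± 0.27, adjusted p = 6.54e-05). Array 4 was the highest of both groups; only 1 of its 3 further probes passed, all of them lower with IL-13. Lcn2, an iron-siderophore-binding acute phase protein, stood at 6.89, 7.14, 7.54 and 7.84 on the 4 control arrays and 5.10, 5.65, 5.31 and 5.48 on the 4 IL-13 arrays. The groups did not overlap and the fall was 3.92-fold (-1.97 ± 0.20, adjusted p = 4.68e-06). Uts2b, a vasoactive urotensin-type peptide, fell 2.89-fold (adjusted p = 3.91e-05). Below these, Il11, an IL-6-family cytokine, fell by 0.90 ± 0.10, adjusted p = 1.66e-05. Pcsk6, a proprotein convertase that activates TGF-beta-family ligands, fell by 0.86 ± 0.10, adjusted p = 1.29e-05, with its dimmer further probe at -0.01. Fst, which encodes the activin antagonist follistatin, fell by 0.78 ± 0.09, adjusted p = 1.58e-05, and Ifit3, an interferon-induced antiviral protein, by 0.80 ± 0.13, adjusted p = 0.000845. Sprr1b, a cornified envelope precursor, the granzyme gene Gzme and the muscle-type acetylcholine receptor subunit Chrna1 fell by 0.87, 0.87 and 0.82. Ugt1a6a and Ugt1a6b, glucuronosyltransferase isoforms that share most of their sequence, fell by 0.88 and 0.89; they may read the same transcripts.

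Of 29 listed genes known from macrophages and lymphocytes as STAT6 targets, 18 were measured. Of these, 10 were higher and 1 lower (61.1%), with a list median of 0.37. The list was written with earlier results of these data known. Chil3 was undetected on every control array and so was measured only through the cytokine-treated arrays. The share of this list is therefore no result. Besides Chil3, Chil4, Cish and Ccl17, the coactivator of mitochondrial genes Ppargc1b rose by 1.39 ± 0.09, adjusted p = 1.9e-08. Tgm2, a transglutaminase that cross-links proteins, stood at 11.48, 11.49, 11.54 and 11.21 on the 4 control arrays and 12.67, 12.79, 12.70 and 12.58 on the 4 IL-13 arrays. This already abundant transcript rose 2.38-fold with no overlap of groups. The transcription factors Klf4 (0.78), Bcl6 (0.38) and Gata3 (0.37) rose, as did Ccl7 (0.67), a monocyte-attracting chemokine whose groups overlapped. Mrc1, the macrophage mannose receptor, went the other way and was undetected on all IL-13 arrays, at least 1.16-fold lower, with overlapping groups. Canonical macrophage targets such as Arg1, Mgl2 and Ccl11 were measured and did not pass. Several of these genes are best known from macrophages, so macrophage markers were read beside them. Only 4 of 23 listed macrophage and Kupffer cell markers passed the detection filter; besides Mrc1, none of Cd14, Csf1r and Spi1 passed the test, and the summed intensity of the 4 genes was 937.8 to 990.3 on control arrays and 1042 to 1154 on IL-13 arrays. In this sum every IL-13 array lay above every control array. Whether macrophages contribute to these signals was not tested. Ptprc was at background on all 8 arrays.

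Genes tied to type 2 responses of mucosal epithelium were measured for 9 members, of which 3 rose and 1 fell. Besides Clca1, Slc26a4, the anion exchanger pendrin, stood at 4.49, 4.34, 4.36 and 4.37 on the 4 control arrays and 5.50, 5.49, 5.70 and 5.24 on the 4 IL-13 arrays; it was undetected on all control arrays and rose at least 1.9-fold. Foxa3, a forkhead factor of liver and goblet cells, rose by 0.42 ± 0.10, adjusted p = 0.0181. Muc1, the transmembrane mucin of ductal epithelium, stood at 8.53, 8.05, 8.27 and 8.62 on the 4 control arrays and 7.71, 7.52, 7.70 and 7.81 on the 4 IL-13 arrays and fell by 0.68 ± 0.11, adjusted p = 0.000669; all 3 further probes passed. It was the only one of 8 mucins and mucin-like membrane genes measured to pass. Further secreted products of gut, pancreas and lung epithelium were grouped after their values were seen, so their share is no result. Of 15 measured, 8 rose and none fell. Reg1, a regenerating-family protein of the pancreas, rose by 1.27 ± 0.17, adjusted p = 8.76e-05, the lung collectin Sftpd by 0.77 and the pancreatic amylase Amy2a5 by 0.71. The gut peptides guanylin and uroguanylin, which act on guanylate cyclase C, rose by 0.65 (Guca2a) and 0.50 (Guca2b), and the secreted ribonuclease Rnase4 (0.70) rose with them. Its relative Rnase1 was undetected on all control arrays and rose at least 1.03-fold.

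Chemokine genes changed in both directions, 5 higher and 2 lower of 17 measured. Apart from Ccl17 and Ccl7, the fractalkine gene Cx3cl1, a membrane-anchored ligand of monocytes, rose by 0.68 ± 0.13, adjusted p = 0.00245, and the monocyte-attracting chemokine Ccl9 by 0.59 ± 0.14, adjusted p = 0.014. Cxcl13, which draws B cells, rose at least 1.11-fold from below detection. The CXCR4 ligand Cxcl12 fell by 0.43 ± 0.09, adjusted p = 0.00798, with neither further probe passing, and the mucosal chemokine Cxcl17 by 0.47 ± 0.10, adjusted p = 0.00877. Among 15 interleukins and related cytokines, Il24, an IL-10-family cytokine, stood at 5.62, 5.27, 5.07 and 5.53 on the 4 control arrays and 6.88, 6.96, 6.74 and 6.77 on the 4 IL-13 arrays, a 2.76-fold rise opposite in direction to the fall of Il11.

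Secreted growth factor systems moved unevenly. In the insulin-like growth factor system, Igfbp5 and Igfbp4 (0.62 ± 0.10, adjusted p = 0.00101) rose, while the other 12 of 14 measured members did not pass. In the TGF-beta and BMP pathway, 4 of 29 measured genes fell and none rose: Fst, the ligand Tgfb3 (-0.33), its receptor Tgfbr1 (-0.35) and Ltbp1 (-0.45), which stores latent TGF-beta in the matrix. The list median was -0.04, and the further probes of Tgfbr1 and Ltbp1 did not pass. Among 9 acute phase proteins 3 fell and none rose: Lcn2, Crp and Cp. Crp, the C-reactive protein, stood at 7.14, 7.19, 7.11 and 7.12 on the 4 control arrays and 6.35, 6.55, 6.38 and 6.52 on the 4 IL-13 arrays, with IL-13 arrays below all controls and a change of -0.69 ± 0.09, adjusted p = 5.12e-05. Ceruloplasmin (Cp) fell by only 0.29 (adjusted p = 0.0288), and none of its 3 further probes passed. In complement and coagulation, by contrast, 3 of 18 rose and none fell. Cfi, the protease that inactivates C3b and C4b, rose 2.8-fold (1.49 ± 0.14, adjusted p = 1.75e-06), Cd55, which dissolves the C3 convertase on cell surfaces, by 0.73, and the thrombin receptor F2r by 0.60.

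Proteases and their inhibitors were among the groups with most rises, 11 higher and 3 lower of 59 measured (23.7%). Besides Capn13, Prss35, Tmprss2 and Cfi, the rises included clade B serpins, intracellular inhibitors of serine proteases. Serpinb9g rose by 1.13 ± 0.10, adjusted p = 5.57e-07, and Serpinb9f (0.74), Serpinb1a (0.73), Serpinb9b (0.72) and Serpinb6b (0.41), named after their values were seen, rose with it. The Serpinb9 genes form a cluster of near copies, so their signals may not be separate. The secreted protease Htra1 fell by 0.39, beside Pcsk6 and Gzme. Lysosomal cysteine proteases rose too, cathepsin Z (Ctsz (0.64)) and cathepsin H (Ctsh (0.41)), each with a further probe passing. The protease inhibitor Timp1 fell by 0.31, and its further probe did not pass.

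Genes for water, ion and solute movement included several with a place in bile duct secretion. Among 75 ion channels and aquaporins, 8 rose and 2 fell. Aqp1, the water channel of the bile duct, stood at 9.49, 9.64, 9.53 and 9.38 on the 4 control arrays and 10.52, 10.45, 10.29 and 10.49 on the 4 IL-13 arrays. The groups were separated, the rise was 1.9-fold (0.93 ± 0.08, adjusted p = 8.18e-07), and 2 of 2 further probes passed. Orai1, the pore of store-operated calcium entry, rose by 0.78 ± 0.08, adjusted p = 7.57e-06, and the glycerol channel Aqp7 at least 1.21-fold from background. Car2, carbonic anhydrase, which makes bicarbonate, rose 3.4-fold (adjusted p = 7.79e-08). Slc4a2, the chloride-bicarbonate exchanger AE2 of the duct, went from 10.37 ± 0.23 to 11.07 ± 0.07 (SD, n = 4), a rise of 0.70 ± 0.10, adjusted p = 0.000182. The calcium-activated chloride channel Ano1, named after its value was seen, rose by 0.47. Downward changes were seen for Slc12a2, the sodium-potassium-chloride importer (-0.35), for Clca3b, a paralog of Clca1 (-0.67 ± 0.12, adjusted p = 0.00179), and for the sodium pump regulator Fxyd5 (-0.57), while the pump subunit Atp1b1 rose by 0.42. Over 186 solute carriers, 11 rose and 5 fell (8.6%). The glucose carrier Slc2a1 rose by 0.74 ± 0.09, adjusted p = 5.01e-05, and Slco2b1, an organic anion carrier, at least 1.27-fold from background. The zinc importer Slc39a4 rose by 0.40 and the related Slc39a10 fell by 0.41.

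Lipid synthesis genes that passed were mostly higher. Among 33 fatty acid synthesis and lipid droplet genes, 6 rose and none fell, although the list median was 0.02. Me1, the malic enzyme that makes NADPH for fatty acid synthesis, stood at 8.44, 8.53, 8.52 and 8.43 on the 4 control arrays and 9.28, 9.42, 9.38 and 9.39 on the 4 IL-13 arrays. The IL-13 arrays were tightly grouped above the controls, a change of 0.88 ± 0.08, adjusted p = 4.63e-07. Acsl3, which activates fatty acids at lipid droplets, rose by 0.76 ± 0.09, adjusted p = 1.4e-05, Acss2, which makes acetyl-CoA from acetate, by 0.44 ± 0.08, adjusted p = 0.00329, and Cidec, which fuses lipid droplets, by 1.18 ± 0.13, adjusted p = 7.68e-06 from near background. Outside this list, Gpd2, the mitochondrial glycerol phosphate dehydrogenase, rose by 0.83 ± 0.08, adjusted p = 1.23e-06. Genes of phospholipid synthesis and remodelling were grouped after their values were seen; of 32 measured, 5 rose and 2 fell. The choline and ethanolamine phosphotransferase Cept1 (0.57 ± 0.07, adjusted p = 6.54e-05) and the acyltransferase Lpcat3, which puts polyunsaturated chains into phosphatidylcholine (0.47 ± 0.07, adjusted p = 0.000252), led the rises. Pcyt2 (0.33) and Pcyt1a (0.29), which make the activated ethanolamine and choline for these lipids, rose less, and the ethanolamine kinase Etnk1 fell by 0.51. Smpd3, a neutral sphingomyelinase that makes ceramide, rose 2.36-fold (adjusted p = 7.12e-08), and the cytosolic phospholipase Pla2g4c rose at least 2.7-fold from background. Acadm, of mitochondrial fatty acid oxidation, rose by 0.36, and the peroxisomal thiolase Acaa1b fell by 0.63 ± 0.08, adjusted p = 5.13e-05. Cholesterol synthesis genes largely did not pass, with 1 rise, Pmvk (0.37), among 22.

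Enzymes that handle foreign compounds changed in both directions. Of 72 cytochromes P450, transferases and aldehyde dehydrogenases, 11 rose and 5 fell (22.2%). Aldh3a1, which oxidises aldehydes, stood at 10.73, 10.75, 10.65 and 10.67 on the 4 control arrays and 11.83, 11.92, 11.84 and 11.91 on the 4 IL-13 arrays. This abundant transcript rose 2.26-fold (1.17 ± 0.07, adjusted p = 7.43e-09) without overlap. The phenol sulfotransferase Sult1a1 rose by 1.01 ± 0.13, adjusted p = 7.51e-05, the fatty acid hydroxylase Cyp4f14 by 0.95 ± 0.11, adjusted p = 1.84e-05 and the drug-oxidising Cyp3a13 by 0.61 ± 0.08, adjusted p = 5.12e-05. Among glucuronosyltransferases, counted by family after their values were seen, 2 of 3 measured Ugt2b genes rose, Ugt2b35 (0.90) and Ugt2b34 (0.61), and 3 of 4 measured Ugt1a genes fell, Ugt1a6a, Ugt1a6b and Ugt1a10 (-0.49). The Ugt1a genes share their last exons, so their probes may read shared sequence. The omega-hydroxylase Cyp4a12a fell by 0.69 ± 0.10, adjusted p = 0.00015. The glycine conjugation enzyme Glyat stood at 7.54, 7.57, 7.51 and 7.67 on the 4 control arrays and 6.78, 6.54, 7.14 and 6.85 on the 4 IL-13 arrays and fell by 0.74 ± 0.11, adjusted p = 0.000167. Nnmt, which methylates nicotinamide, fell by 0.53 ± 0.08, adjusted p = 0.000274. The conjugate exporters of the basolateral membrane Abcc3 (-0.71 ± 0.10, adjusted p = 0.000166) and Abcc4 (-0.44 ± 0.08, adjusted p = 0.00219) fell, and the bile acid receptor Nr1h4 (FXR) fell by 0.29 ± 0.07, adjusted p = 0.0227. In the glutathione and NRF2 group, 5 rose and 2 fell of 34, with the glutathione synthesis genes Gss (0.40) and Gclm (0.40) and the autophagy receptor Sqstm1 (0.29) among the rises.

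Sugar and glycan metabolism showed a few moderate changes. Besides Egln3 and Slc2a1, the phosphofructokinase isoform Pfkp rose by 0.46 while Pfkl fell by 0.29; their further probes did not pass. Pdk1, which shuts off pyruvate dehydrogenase, and Ankrd37, both hypoxia-induced genes, fell by 0.38 and 0.48, opposite to Egln3. Pcx, which carboxylates pyruvate, rose by 0.49 with overlapping groups. Phgdh, the first enzyme of serine synthesis, fell by 0.48. Of 95 glycosyl- and sialyltransferases and related enzymes, 6 rose and 3 fell. The sialyltransferases St3gal4 (0.69) and St3gal6 (0.51) rose, Galnt14, which starts O-linked glycans, rose at least 1.24-fold from background, and Gcnt1, which branches them, fell by 0.63 ± 0.13, adjusted p = 0.00536. The cellular retinol-binding protein Rbp2 (0.58) and the retinol-binding protein receptor Stra6 (0.54) rose. Dio3, which inactivates thyroid hormone, stood at 7.20, 7.26, 7.22 and 7.07 on the 4 control arrays and 6.58, 6.47, 6.56 and 6.50 on the 4 IL-13 arrays and fell by 0.66 ± 0.07, adjusted p = 7.09e-06, with a gap between the groups wider than the range of either.

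Structural genes fell more often than they rose in the matrix and were mixed elsewhere. Of 57 collagens, laminins and other matrix genes, 3 rose and 7 fell. Col16a1, a fibril-associated collagen, stood at 8.36, 8.74, 8.87 and 8.37 on the 4 control arrays and 7.77, 8.11, 7.84 and 7.73 on the 4 IL-13 arrays and fell by 0.72 ± 0.11, adjusted p = 0.000496. The cross-linking enzymes Loxl1 (-0.45) and Plod2 (-0.41) fell, and Col6a5 rose at least 1.44-fold from background. Among integrins and partners, Itgb6, which activates latent TGF-beta on epithelium, rose by 0.77 ± 0.09, adjusted p = 1.66e-05 with 2 of 3 further probes passing, and Lims2, a focal adhesion protein, fell by 0.63 ± 0.07, adjusted p = 2.24e-05. Among 24 adherens junction and desmosome genes 4 rose and none fell: the plakophilin Pkp2 (0.54), the protocadherins Pcdh1 (0.45) and Pcdh7 (0.34), and cadherin Cdh6 (0.41). The claudin Cldn6 fell by 0.62 ± 0.09, adjusted p = 0.000339. Keratins split, with Krt18, a keratin of simple epithelium, at 12.54, 12.51, 12.32 and 12.20 on the 4 control arrays and 12.80, 12.88, 12.84 and 12.89 on the 4 IL-13 arrays, a rise of 0.46 ± 0.08, adjusted p = 0.00204. Krt7, a duct keratin, stood at 9.45, 9.68, 9.45 and 9.62 on the 4 control arrays and 9.08, 9.09, 9.07 and 9.20 on the 4 IL-13 arrays, a fall of 0.44 ± 0.08, adjusted p = 0.00111. Krt78 rose from background, Krt20 fell by 0.49, and the other 8 keratins measured, Krt19 among them (0.15 ± 0.08, adjusted p = 0.396), did not pass. Of 21 bile duct and progenitor markers, Aqp1, Slc4a2, Krt18 and Lgals3 (0.25) rose and Krt7 and Muc1 fell. In the actin group, Fhl1, a LIM protein of muscle, rose 2.09-fold (adjusted p = 5.98e-08), Fmnl2, a formin of cell protrusions, by 0.94 ± 0.08, adjusted p = 8e-07 and the brush border bundling protein Pls1 by 0.42 ± 0.07, adjusted p = 0.00104, against the fall of Acta2.

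Because Acta2 marks stellate cells and fibroblasts, the markers of these cells were read beside it. Of 22 listed, 7 passed the detection filter, and apart from Acta2 none of Vim, Des, Pdgfra, Pdpn, Cspg4 and Ngfr passed the test. The summed intensity of the 7 genes was 4333 to 4833 on control arrays and 3672 to 4276 on IL-13 arrays, and Acta2 is itself part of this sum. Without Acta2 the other 6 summed to 3884 to 4602 on control arrays and 3611 to 4221 on IL-13 arrays, and the groups overlapped. In bulk RNA, fewer cells of a type and less RNA per cell cannot be told apart. Among endothelial markers, 1 of 9 measured passed, the VEGF receptor Flt1, a rise of 0.57 ± 0.10, adjusted p = 0.00121; the summed intensity overlapped between groups (751.3 to 927.3 and 867.1 to 1051). Of lymphocyte markers, 3 of 19 passed the filter and none passed limma's test, 1 of them having an unadjusted p under 0.05; their summed intensity was 1280 to 1624 on control and 1609 to 1847 on IL-13 arrays. None of 6 erythroid genes passed, with 0 at an unadjusted p under 0.05, and no setting run called a member of either list.

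Transcription factors showed a set of strong rises among many genes that did not pass. Elf3, an ETS factor of epithelium, stood at 6.77, 6.61, 6.98 and 6.62 on the 4 control arrays and 8.55, 8.73, 8.37 and 8.39 on the 4 IL-13 arrays. It rose 3.4-fold (1.77 ± 0.12, adjusted p = 1.41e-08), and 2 of 2 further probes passed. Mxd1, which competes with MYC for its partner MAX, rose 3.04-fold (adjusted p = 2.73e-09) and the vitamin D receptor Vdr 2.09-fold (adjusted p = 7.68e-06). Bhlhe40, a repressor of the clock network, rose by 0.78 ± 0.08, adjusted p = 8.31e-06, the stress factor Atf3 by 0.84 ± 0.10, adjusted p = 3.1e-05, Irx3, a homeobox factor, by 0.66 ± 0.08, adjusted p = 2.63e-05, and Zbtb7c by 0.76 ± 0.09, adjusted p = 1.4e-05. The Kruppel-like factors Klf5 (0.48) and Klf3 (0.37) rose beside Klf4, but with overlapping groups. Foxa3, Gata6 (0.38) and Elf3 were among 4 rises of 28 liver and bile duct fate factors, and Snai2 (-0.41) and Nr1h4 were the 2 falls. Sox11, a factor of immature cells, fell by 0.48 ± 0.08, adjusted p = 0.000669, and the TEAD cofactor Vgll3 by 0.70 ± 0.11, adjusted p = 0.00054. Of 259 zinc finger proteins 3 rose and 2 fell, and of 130 chromatin modifiers 2 rose and none fell, Kdm2a (0.50) and Smarca2 (0.33); both shares are below the background.

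Signalling genes outside the JAK-STAT group changed in small numbers. In the Wnt pathway, 4 of 27 rose and 1 fell. Axin2, a feedback inhibitor and common readout of the pathway, stood at 6.23, 6.30, 6.41 and 6.26 on the 4 control arrays and 6.93, 6.99, 6.94 and 6.79 on the 4 IL-13 arrays, with separated groups and a rise of 0.61 ± 0.08, adjusted p = 6.39e-05. The stem cell receptor Lgr5 rose at least 1.13-fold from below detection, Wnt6 (0.44) and Fzd5 (0.28) rose, and the repressor Tcf7l1 fell by 0.38 ± 0.08, adjusted p = 0.00525. Egfr, the receptor of the EGF present in the medium, fell by 0.41 ± 0.07, adjusted p = 0.00187, with 1 of 4 further probes passing, and the ERK phosphatase Dusp6 and the ERK-induced Ier3 fell by 0.29 and 0.35. The Notch ubiquitin ligase Dtx4 rose by 0.79 ± 0.09, adjusted p = 2.43e-05 and the Notch target Hey1 fell by 0.41 ± 0.08, adjusted p = 0.00262. Among 38 receptors coupled to G proteins 5 rose and 1 fell. P2ry6, the receptor for UDP, stood at 6.39, 6.03, 6.26 and 5.75 on the 4 control arrays and 7.35, 7.39, 7.26 and 7.33 on the 4 IL-13 arrays and rose 2.33-fold (adjusted p = 8.63e-07), and the orphan receptor Gprc5b rose 2.02-fold (adjusted p = 3.86e-07). Ffar4, a receptor for long-chain fatty acids, stood at 10.79, 10.60, 10.57 and 10.39 on the 4 control arrays and 10.00, 9.85, 9.97 and 9.76 on the 4 IL-13 arrays and fell by 0.70 ± 0.10, adjusted p = 0.000184. The kinase Mapkapk3, which acts below p38, rose by 0.89 ± 0.09, adjusted p = 3.03e-06, and Pde2a, a phosphodiesterase that cGMP activates, stood at 4.72, 4.77, 4.98 and 4.63 on the 4 control arrays and 5.63, 5.74, 5.97 and 5.67 on the 4 IL-13 arrays and rose 1.96-fold. In inflammatory signalling, Vcam1 (0.52 ± 0.10, adjusted p = 0.00288), Ikbke (0.43) and Relb (0.32) rose among 27 genes of the NF-kB group and none fell; neither further probe of Vcam1 passed. Of 37 interferon response genes 1 rose, Irf2 (0.34), and 1 fell, Ifit3, a share of 5.41%.

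A few smaller families were counted only after their values had been seen, so their shares are no result. Of 49 Ras-like GTPases and their regulators, 1 rose and 6 fell: Rem2 (-0.55), Rasl11a (-0.57), Rasl11b (-0.47), Rasl12 (-0.52), the exchange factor Rasgrp3 (-0.53) and Sipa1l1 (-0.43) fell, and Rap1gap2 (0.49) rose. Among vasoactive peptides, the vasoconstrictor endothelin-1 (Edn1) rose by 0.85 ± 0.10, adjusted p = 2.19e-05 and the natriuretic peptide gene Nppb by 0.79 ± 0.11, adjusted p = 0.000101, opposite to Uts2b. Among purine genes, Entpd2, which splits extracellular ATP, rose 2.02-fold (adjusted p = 1.51e-06) beside P2ry6, and adenosine deaminase (Ada) fell by 0.39 ± 0.09, adjusted p = 0.0098. The lymphatic growth factor Vegfc rose by 0.79 ± 0.08, adjusted p = 5.59e-06. Dexamethasone was in the medium of every group. Of 17 genes of the glucocorticoid receptor and its targets, 3 rose and none fell: Tsc22d3 (0.82 ± 0.07, adjusted p = 6.5e-07), Txnip (0.72 ± 0.09, adjusted p = 4.77e-05) and Fkbp5 (0.38). The list as a whole did not rise: its median change was -0.06, and 7 of the 17 genes had a positive change. Other strong rises outside every list were Shisa2, an endoplasmic reticulum protein that holds back Wnt and FGF receptors (1.78 ± 0.10, adjusted p = 2.73e-09), Pdzk1ip1, a small membrane protein of transporting epithelium (1.56 ± 0.15, adjusted p = 1.5e-06), and Il4i1, a secreted amino acid oxidase (0.86 ± 0.10, adjusted p = 1.62e-05).

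The moderate changes with the smallest adjusted p were chosen by that rank among changes below 2-fold, 20 in each direction. Beside those already described, the rises held Flrt3, a cell adhesion protein that binds FGF receptors (0.99 ± 0.11, adjusted p = 7.65e-06), Slamf9, an immune receptor of the SLAM family (0.91 ± 0.10, adjusted p = 7.65e-06), the mitochondrial sulfur dioxygenase Ethe1 (0.69 ± 0.08, adjusted p = 1.4e-05), and Dennd11 (0.96), Eepd1 (0.96), Pcyox1l (0.84) and Oit3 (0.63). The falls held the calcium-binding protein S100a4 (-0.64 ± 0.10, adjusted p = 0.000501), cytidine deaminase (Cda, -0.59 ± 0.08, adjusted p = 0.000139), the axon guidance ligand Sema3a (-0.57 ± 0.09, adjusted p = 0.000534), the RNA polymerase I subunit Polr1e (-0.54 ± 0.07, adjusted p = 0.000104), the lectin Siglecg (-0.55) and the adenylosuccinate synthase Adssl1 (-0.47). For each of these 40 genes the control and IL-13 arrays were apart.

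**Figure D4:**
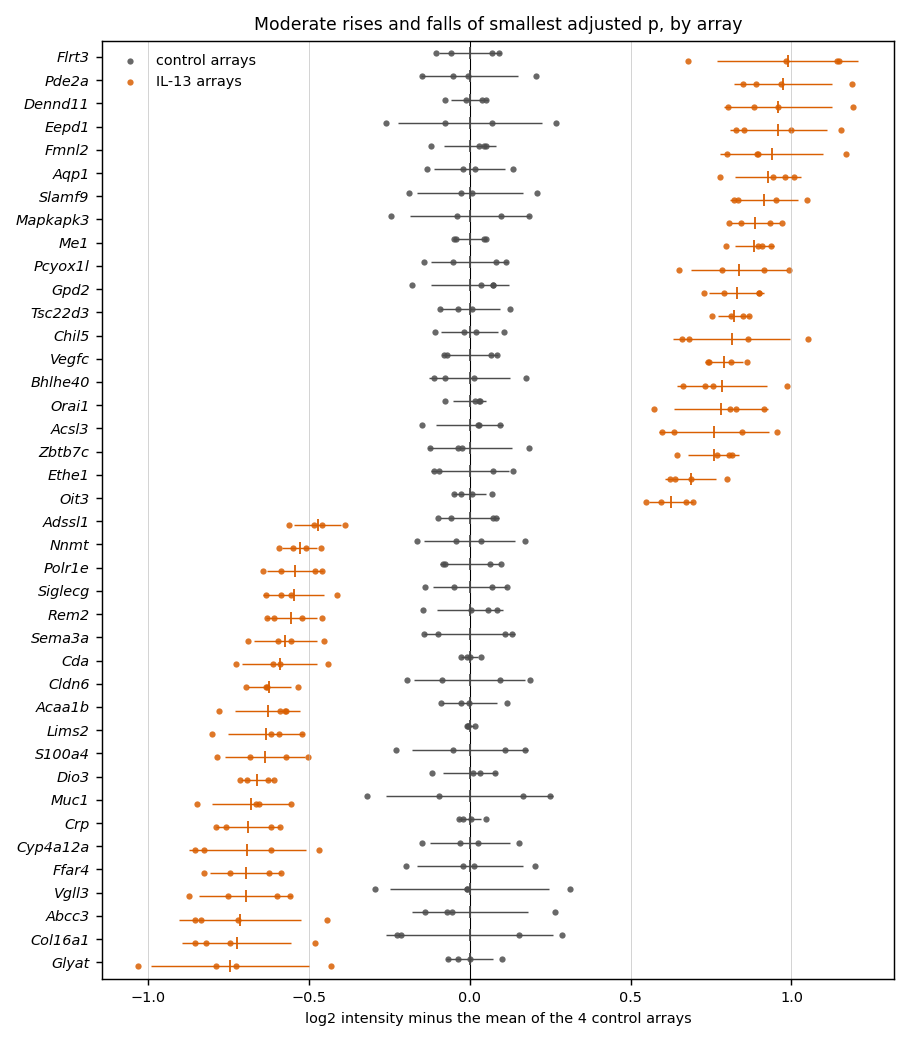
Log2 intensity minus the mean of the 4 control arrays for the 20 rises and 20 falls of smallest adjusted p among called changes below 2-fold; points are arrays, ticks group means and lines SDs. The IL-13 arrays lie clear of the control arrays for all 40 genes although no mean change reaches 1.

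Large groups of housekeeping and growth genes had few or no calls. Of 430 measured genes in 6 lists (respiratory chain, mitochondrial ribosome and import, DNA replication and repair, proteasome, cytosolic ribosomal proteins, and translation factors with tRNA synthetases), limma called 0, and 32 had an unadjusted p under 0.05. Over all genes tested, 1859 of 10453 had one. Other settings called up to 3 in any of these lists, and the submitters' processed values called 1 to 8. Of 66 cell cycle genes, Ube2c (-0.25) and Stmn1 (-0.29) fell and none rose; 19 of the 66 had a positive change and the median was -0.06. Of 53 ribosome biogenesis genes Polr1e fell, 11 had a positive change and the median was -0.07. Of 59 histone genes, 3 fell, all copies of histone H4 (H4c8 (-0.48), H4c9 (-0.35) and H4c1 (-0.31)) whose probes may read shared sequence. The ATF4 and unfolded protein group had 4 rises, Atf3, Trib3 (0.34), Nupr1 (0.36) and Chac1 (0.30), and 1 fall, Phgdh, among 41. In vesicle trafficking, 4 rose and 2 fell of 277, led by the synaptotagmin Syt12 (0.98 ± 0.13, adjusted p = 7.92e-05), and among 252 ubiquitin ligases and deubiquitinases 2 rose and 5 fell, led by Rnf19b, a ligase of cytotoxic cells, with a 3.18-fold rise (adjusted p = 2.54e-10). Anti-apoptotic Bcl2 (-0.46) and Cflar (-0.36) fell among the 40 measured genes of the apoptosis list and none of this list rose. Their share of 5.0% is below the 5.73% over all genes. None of the 3 further probes of Bcl2 passed.

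**Figure D5:**
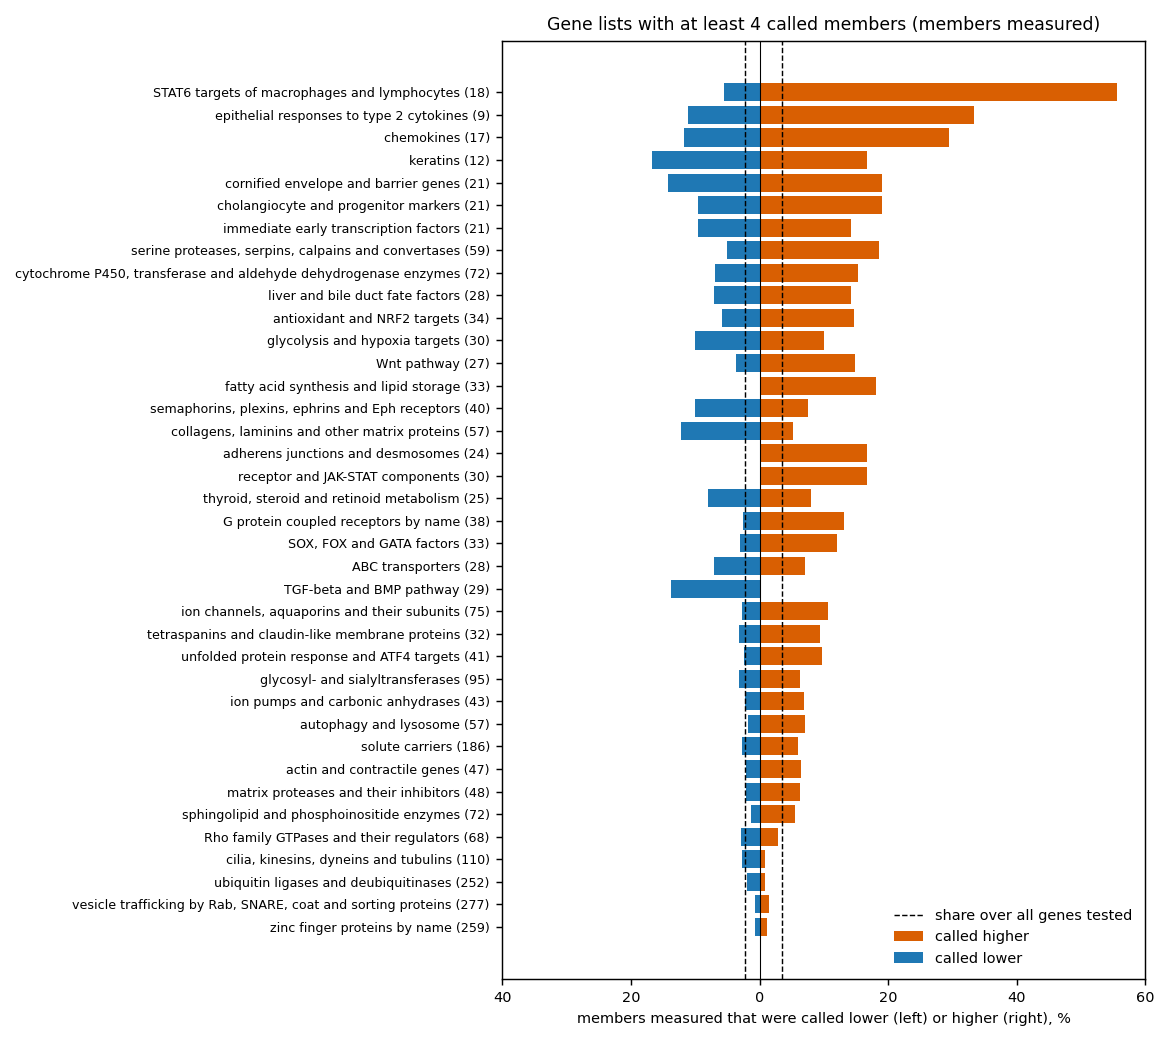
Share of measured members called higher (right) and lower (left) with IL-13 in the 38 lists with at least 4 called members, in percent, with the number measured in parentheses; dashed lines mark the shares over all genes tested, 3.5% higher and 2.23% lower. STAT6 targets, epithelial type 2 genes and chemokines lead, TGF-beta and matrix genes reach mainly left, and the 3 lists of over 250 genes lie inside the dashed lines. The lists were written with earlier results of these data known, so the order is a description and no test. Members such as Chil3, Slc26a4 and Cxcl13 passed the detection filter only through cytokine-treated arrays, so the leading shares are no result.

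IL-4, which shares the receptor pair with IL-13, was given to the third group, and the 2 cytokines were compared directly. At an adjusted p under 0.05 limma called 0 of 10453 genes (0%) between IL-13 and IL-4, with a smallest adjusted p of 0.133; 852 genes had an unadjusted p under 0.05, and other settings called 0 to 2. Hemoglobin probes averaged 5.36, 6.77 and 8.95 on IL-4 arrays 1, 2 and 4 and 4.68 on IL-4 array 3, against 4.40 to 4.80 on the IL-13 arrays. The fit without control 4, IL-4 2 and IL-4 4 also called 0 genes between the cytokines. Both comparisons with vehicle use the same 4 control arrays, so their values are only set side by side. Chil4 changed by 8.87 with IL-13 and 8.64 with IL-4, Igfbp5 by 4.81 and 4.61, and Cish by 2.64 and 2.46. Chil3, undetected on all control arrays, differed between IL-13 and IL-4 by 0.01 ± 0.15 (adjusted p = 0.993). Wider gaps that did not pass were seen for Pde2a (0.97 and 0.46, difference 0.52 ± 0.10, adjusted p = 0.134), Slc26a4 (undetected on all control arrays, difference between the cytokines 0.47 ± 0.09, adjusted p = 0.133), Lcn2 (-1.97 and -1.05, difference -0.92 ± 0.20, adjusted p = 0.246) and Acta2 (-2.07 and -0.85, difference -1.23 ± 0.27, adjusted p = 0.246). Il13ra2 was detected on 3 of 4 IL-13 arrays and 1 of 4 IL-4 arrays, and the fitted difference between them was 0.32 ± 0.09 (adjusted p = 0.431). A difference that misses the threshold does not show that the cytokines act alike.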

How the data were processed

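The members and gene lists were chosen with earlier results of these data known. RNA was amplified, labelled and hybridised to Illumina mouse beadchips, per the labels' protocols; GenomeStudio 2011.1 is named in the submitters' processing notes. The deposited table holds a linear intensity and a detection p-value per probe and array, not normalized. The submitters' deposited log2 values (median 8.97), with a normalization the sources used here do not describe, served as an alternative. The number of arrays limits precision.

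In limma 3.58.1 (R 4.3.3), background was corrected by normexp with negative controls inferred from the detection p-values (offset 16), followed by quantile normalization over 12 arrays (neqc). Probes detected at p under 0.05 on at least 4 arrays were kept (19915 of 45281): 16680 had 1 gene symbol, 3226 none and 9 several, and only the first were used. Symbols come from GEO's platform annotation; 99.8% matched current RefSeq names (GRCm38.p6). The brightest probe stood for a gene (4185 of 10453 genes had further probes). Further probes are mentioned for some genes only. Genes named without this remark whose further probes did not pass include Slc12a2, Plod2, Gcnt1, Etnk1, Pcyt2, Dusp6, Kdm2a and Smarca2. The same holds for Rap1gap2, whose dimmer further probe changed by -0.16. lmFit and eBayes were fitted to 3 groups of 4 arrays with two-sided tests and Benjamini-Hochberg adjustment over all genes. A gene undetected on all arrays of a group has only a bound, taken against the lowest detected signal of each array and given as "at least". Where that group was the control, the gene passed the filter only through cytokine-treated arrays. Its adjusted p, its separation and its place in a list count are then descriptions and no support. Genes named are the 12 largest separated rises and falls, the 20 rises and 20 falls of smallest adjusted p under 2-fold, up to 4 called genes per direction in each of 89 lists (all in lists of at most 20 measured), and pathway and gate genes; others are marked as seen first, and 8 lists were added that way. The script was tested on simulated data. Replicate numbers did not pair the arrays: same-numbered deviations correlated at 0.0907, -0.00546, 0.122 and 0.208. No 2 arrays held identical values. Alternatives changed the background correction, offset, scaling, filter, probe choice, variance model, blocks and arrays.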

Additional observations from a re-analysis of the deposited data

Results flagged for a closer look

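For each of the 235 genes named with values, Apoa1 aside, the highest or lowest array of the 4 control and of the 4 IL-13 arrays was set against the other 3 by Dixon's ratio, the gap to the nearest array over the whole range. The ratio was above its 95% critical value for 4 samples in 32 of 470 groups of arrays, from 31 genes; chance flags about 1 in 20 such groups. IL-13 array 1 was the highest for Acss2 (7.01 against 6.78), set against the nearest array of its group. IL-13 array 2 was the highest for Hs3st1 (10.40 against 10.17) and Il4i1 (5.67 against 5.52) and the lowest for Ifit3 (6.91 against 7.33) and Slco2b1 (4.74 against 4.94), each set against the nearest array of its group. IL-13 array 3 was the lowest for Acaa1b (6.28 against 6.47), Chrna1 (5.17 against 5.40), H4c9 (8.50 against 8.86), Rbp2 (7.45 against 7.69) and Socs3 (8.48), each set against the nearest array of its group. IL-13 array 4 was the highest for Acta2 (6.89 against 5.95) and Krt7 (9.20 against 9.09) and the lowest for Cx3cl1 (7.93 against 8.15) and Cyp4f14 (6.07 against 6.44), each set against the nearest array of its group. Control array 1 was the highest for Gclm (10.19 against 10.05) and Slc26a4 (4.49 against 4.37) and the lowest for Ccl9 (8.84 against 9.35) and Fmnl2 (7.76 against 7.91), each set against the nearest array of its group. Control array 2 was the highest for Sprr1b (6.04 against 5.39) and the lowest for Hey1 (6.63 against 6.74) and Orai1 (8.55 against 8.64), each set against the nearest array of its group. Control array 3 was the highest for Lims2 (7.96 against 7.93) and the lowest for Ccl17 (5.86 against 6.19), each set against the nearest array of its group. Control array 4 was the highest for Ccl7 (8.16 against 7.46), Chil4 (5.12 against 4.40), Prom1 (4.77 against 4.40) and Sftpd (6.05 against 5.40) and the lowest for Cx3cl1 (6.91 against 7.55), Gpd2 (8.75 against 8.96), Irx3 (6.88 against 7.07), Kdm2a (9.23 against 9.61) and Slc2a1 (9.86 against 10.23), each set against the nearest array of its group. Control array 4, which also had the highest hemoglobin level of the control arrays, held 9 of these values. Its low values for Gpd2, Irx3 and Slc2a1 and its high values for Chil4 and Sftpd left the control and IL-13 arrays apart for those genes, and its high value for Ccl7 was where the groups overlapped.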

How the results depend on the processing

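No called gene among those named changed direction under any of the 24 alternatives. Calls were lost more often. Of 284 genes chosen by rule and 68 chosen after being seen, 100 lost their call with the submitters' processed values. Without background correction 40 did. With the submitters' values, Gata6, Kdm2a, Ano1, Fkbp5 and Bcl6 were among the genes that lost it. The total of 599 genes stayed within 1.5 times under every other scaling, background, filter, probe and variance setting (508 to 698), but with the submitters' processed values the split turned to 203 higher and 406 lower. Under all 4 other scalings and backgrounds, 200 of the 366 rises and 183 of the 233 falls kept their call. An adjusted p under 0.01 left 316 genes (214 higher, 102 lower, 270 of them under 2-fold). Fitting only chip 1 called 243 genes (171 higher, 72 lower, 196 under 2-fold) and only chip 2 called 186 (142 higher, 44 lower, 134 under 2-fold), each with 4 arrays fewer per comparison. Leaving out 1 array at a time gave 409 to 533 genes, 266 to 318 higher 143 to 222 lower and 365 to 491 under 2-fold; 333 genes kept their call in all 8 fits. The falls were fewest without IL-13 replicate 2 (143) and without IL-13 replicate 3 (148); the cause was not tested. Between IL-13 and IL-4, limma called 0 genes, 2 with trend and robust eBayes, 1 on chip 1 alone, and 0 to 1 without 1 array (1 without IL-13 replicate 1 or 4). With the replicate block, 600 genes passed (365 higher, 235 lower); the numbers do not pair the arrays. Leaving out control 4, IL-4 2 and IL-4 4 together, which was chosen after seeing the data, left 514 genes (307 higher, 207 lower). The share of rising genes with TTC and GAA set 4 bases apart was 7.14% to 9.57% over all settings. Dim probes limit the smallest changes: 24 rises were undetected on all control arrays and 2 falls on all IL-13 arrays, so only bounds are known for them, and of 373 further probes of called genes 109 passed in the same direction.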
